A study of Zea mays with 12 samples.

Results

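The 163 probe sets described here gave a signal in B73 endosperm at least 5 times that in Mo17 endosperm. Most of them lay between these levels in both reciprocal hybrids. They are 163 of the 17621 probe sets on the maize array other than Affymetrix controls (0.925%). A probe set was a member when it had no gene in the platform's annotation, its lowest B73 array read at least 100 and at least 5 times its highest Mo17 array, and a weight of the female parent, called f, was from 0.4 to under 0.9. The weight f is (1 + (X − Y)/(B − M))/2, where B, M, X and Y are the mean signals of B73, Mo17, B73xMo17 and Mo17xB73, and it is 2/3 when each hybrid follows its share of B73 genomes. The members were thus chosen by the B73 and Mo17 signals and by the difference between the hybrids, and these values are given as description only. The level of both hybrids together was left free by the choice and is what was tested. Its reference, the level of both inbreds, was not left free.

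Endosperm of maize is triploid: the female parent gives 2 genome doses and the male parent 1. A transcript made only from B73 genomes, at a constant amount per genome, would stand at 2/3 of the B73 level in the hybrid with B73 as female and at 1/3 in the reciprocal hybrid. Maize inbreds are known to differ in gene content, so that a gene present in B73 can be missing from Mo17. On short-oligonucleotide arrays a gene missing from Mo17, a gene that Mo17 does not transcribe and a Mo17 transcript that differs in the sequence under the probes all lower the Mo17 signal, and these arrays cannot tell them apart. The members carry no gene names in the sources used here, so no role is given for any of them, and their probe sequences were not used here.

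The arrays came from endosperm of field-grown plants 19 days after pollination, in 4 genotypes: the inbreds B73 and Mo17 and the hybrids B73xMo17 and Mo17xB73, with no transgene or treatment. The parent written first was taken to be the female, which is the usual convention and which the labels do not state. Each sample was a pool of 36 endosperms from 6 ears, and the 3 replicates of each genotype were separate crosses of 3 dates, those of 1 date made close together in time. Signals are MAS5 values in arbitrary units, set here to a common trimmed mean over the 12 arrays, and those of different probe sets cannot be compared as amounts of RNA. In the pooled tissue, fewer cells of a type and less RNA per cell cannot be told apart.

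The trimmed mean of the deposited values ran from 304 to 458 between arrays before scaling. Endosperm markers were bright in every genotype: the mean signal of shrunken2 (sh2), a subunit of the ADP-glucose pyrophosphorylase of starch synthesis, was 14609 in B73 and 12227 in Mo17 on its brighter probe set. The 9 probe sets of the endosperm markers (sh2, bt2, wx1, PBF, gz27 and gz50) summed to between 71580 and 74384 in B73, 70843 and 73542 in B73xMo17, 61191 and 65279 in Mo17xB73, and 55560 and 70203 in Mo17. The 5 probe sets of the green tissue markers lhcb6 and psah1 were dim, with sums from 184 to 229 in B73, 211 to 218 in B73xMo17, 131 to 241 in Mo17xB73 and 122 to 168 in Mo17. The 6 probe sets of basal transfer layer markers (BET1, betl3, betl4, meg2 and bap2) were lower in B73 than in Mo17 in 6 of 6, their sum ranging from 1652 to 2552 in B73, 2311 to 3637 in B73xMo17, 9235 to 10504 in Mo17xB73 and 6779 to 9795 in Mo17. The 4 probe sets of embryo markers (glb1, ole1 and a4Lea) summed to between 535 and 1091 in B73, 664 and 1769 in B73xMo17, 1720 and 2333 in Mo17xB73, and 1524 and 1824 in Mo17. Of these 4, 3 were lower in B73 than in Mo17, and 1 of the 2 for glb1 was higher (74.7 against 21.5). The transfer layer and embryo sums were thus lower in B73 than in Mo17, opposite to the members. The endosperm and green tissue sums were higher in B73, as the members were. Single probe sets went the other way: 2 of the 9 for endosperm and 1 of the 5 for green tissue were lower in B73. The latter was the brightest of its list, an lhcb6 probe set at 85.5 in B73 against 91.7 in Mo17. The part of these tissues in the members' levels was not tested.

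Across the 163 members the median B73 signal was 401, with a range from 116 to 9321. The median signal was 277 in B73xMo17, 147 in Mo17xB73 and 16.6 in Mo17. As a percent of each member's own B73 level, B73xMo17 stood at a median of 71.5% (quartiles 64.1 and 78.4), Mo17xB73 at 39.0% (quartiles 32.4 and 46.1) and Mo17 at 5.46%. The dose expectations are 66.7% and 33.3% where Mo17 gives no signal. In 58 members the Mo17 mean was under 10.6, which is the 20th percentile of all signals on the arrays, and in 28 it was 100 or more.

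Some of the brightest members showed the pattern on single arrays. Others that were brighter than Zm.15876.1.A1_at did not stand at the dose level in Mo17xB73. This hybrid stood at 56.5% of B73 in Zm.14471.2.A1_at, 77.1% in Zm.3714.2.A1_at and 76.7% in Zm.5707.1.S1_at. Each of these members was called above dose in the test of Mo17xB73 described below. For Zm.16904.2.A1_a_at the 3 B73 arrays read 9259, 8953 and 9751, the B73xMo17 arrays 5517, 8492 and 7126, the Mo17xB73 arrays 2714, 2574 and 3221, and the Mo17 arrays 458, 273 and 300.0, in the order of replicates 1 to 3. No array of any genotype overlapped that of another in this member, and the hybrids stood at 75.6% and 30.4% of B73. Zm.16904.2.A1_x_at and Zm.16904.2.A1_at, which share the start of its name and are no members, differed less between the genotypes. Their means were 466 and 265 in B73, 345 and 170 in B73xMo17, 300 and 165 in Mo17xB73, and 167 and 116 in Mo17. For Zm.12821.1.A1_at the B73 arrays read 8057, 8807 and 9225, the B73xMo17 arrays 4318, 6786 and 6655, the Mo17xB73 arrays 3707, 2930 and 4282, and the Mo17 arrays 947, 1105 and 1204. The genotypes again kept apart, although the lowest B73xMo17 array was only just above the highest Mo17xB73 array. For Zm.15876.1.A1_at the B73 arrays read 4816, 4591 and 5022, the B73xMo17 arrays 2588, 3320 and 3622, the Mo17xB73 arrays 1512, 1759 and 1846, and the Mo17 arrays 25.2, 7.21 and 9.92. In this member Mo17 was at 0.293% of B73 and the hybrids were at 66.0% and 35.5%, again with no overlap.

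**Figure D1:**
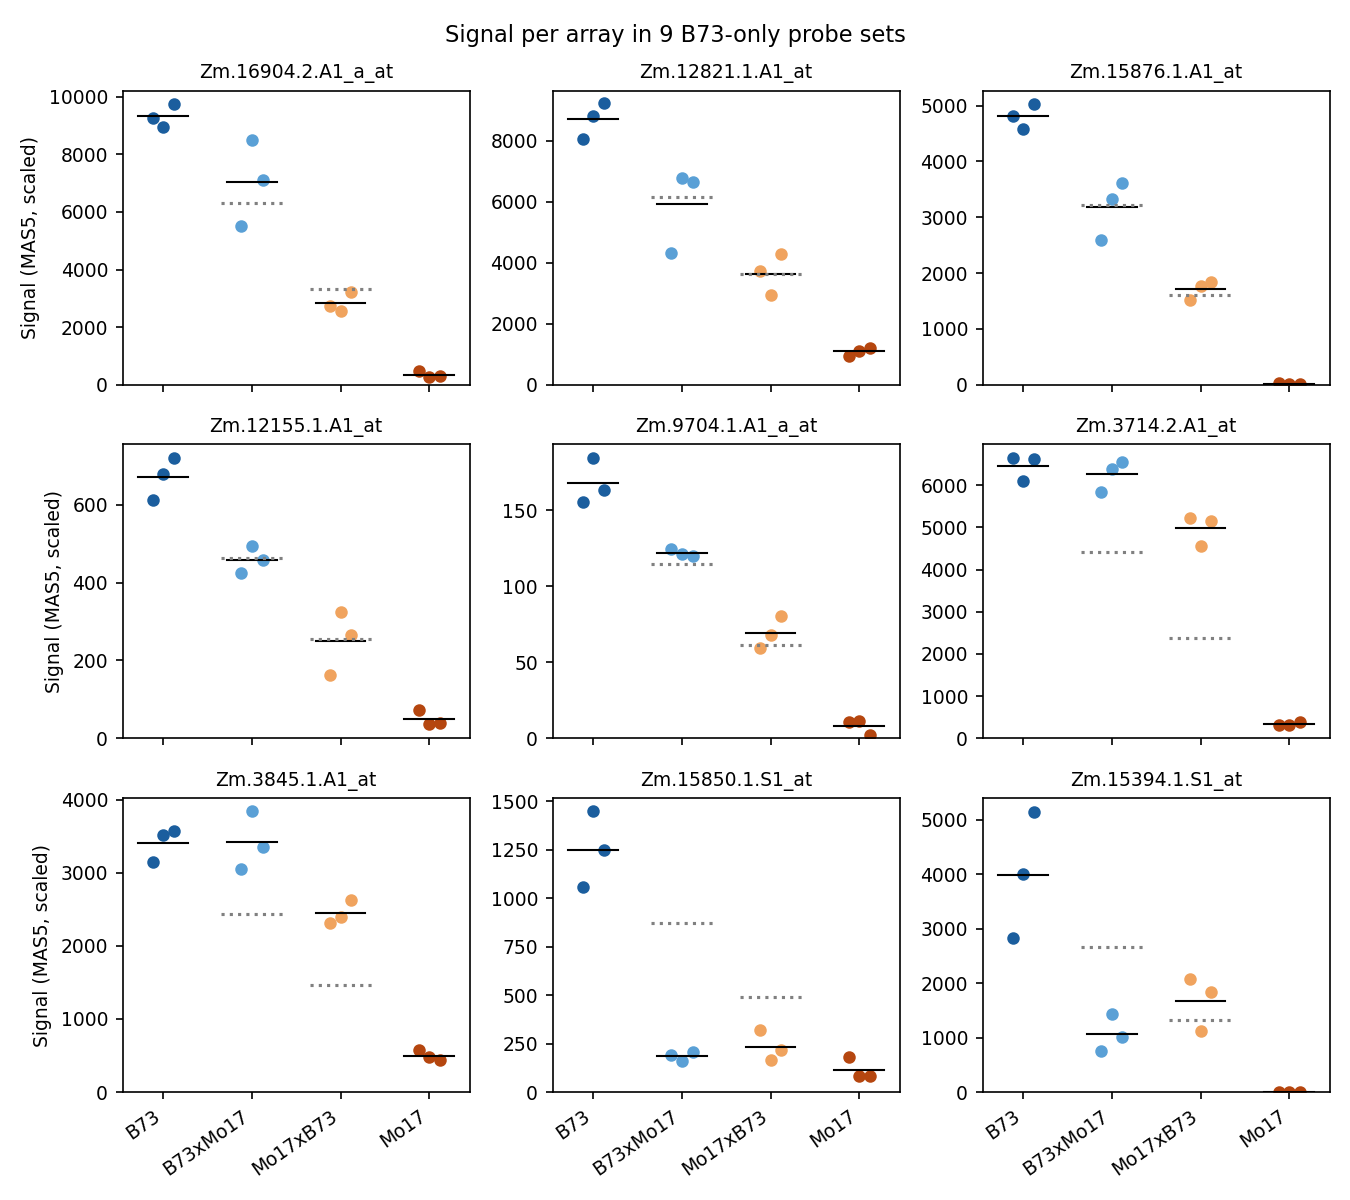
Signal per array (scaled MAS5 signal, linear axis from 0) of 9 members in B73, B73xMo17, Mo17xB73 and Mo17. Points are the 3 arrays of a genotype, solid lines their means, and dotted lines the level of each hybrid expected from 2 female and 1 male dose of the measured inbred means. In Zm.15876.1.A1_at the hybrid means of 3177 and 1706 lie at the dotted lines, in Zm.3714.2.A1_at both lie above them, and in Zm.15850.1.S1_at both lie below them.

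Members with f nearest to 2/3 included dim and bright ones. In Zm.12155.1.A1_at the B73 arrays read 612, 679 and 721, the B73xMo17 arrays 424, 493 and 458, the Mo17xB73 arrays 161, 324 and 267, and the Mo17 arrays 73.03, 35.5 and 39.4. In Zm.9704.1.A1_a_at the B73 arrays read 155, 184 and 163, the B73xMo17 arrays 124, 121 and 119.9, the Mo17xB73 arrays 59.3, 67.6 and 80.4, and the Mo17 arrays 10.9, 11.5 and 2.50. The 4 genotypes did not overlap in either member, and the hybrids stood at 68.3% and 37.4% of B73 in the former and at 72.7% and 41.2% in the latter. The third of these members, Zm.3845.1.A1_at, had the same f of 0.667 but stood at 100.2% and 71.7% of B73, so that an f of 2/3 did not by itself place the hybrids at the dose levels.

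The order of the arrays was alike in most members. Every B73xMo17 array lay above every Mo17xB73 array in 137 of 163 members, against 19.4% of the 11747 probe sets tested. Every B73 array lay above every Mo17xB73 array in 161 (24.8% of all tested). Every Mo17xB73 array lay above every Mo17 array in 161 members (14.0% of all tested), and every B73xMo17 array did so in 162 (23.7% of all tested). On each of the 3 dates, 132 members had the order B73, B73xMo17, Mo17xB73, Mo17, which 5.26% of all tested had. The rule used the inbred levels and the difference between the hybrids, so nothing is read from these shares.

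The values of f had a median of 0.665 over the members (quartiles 0.621 and 0.712), from 0.424 to 0.831. In 86 of 163 members f lay within 0.05 of 2/3, and in 139 within 0.1. The SD of f between members was 0.0690. Within a member, f had a median SD over the 3 dates of 0.0541 and a median SE of 0.0312, so that the spread between members was larger than the error of a single member's f. The limits on f removed few probe sets: 168 unannotated probe sets met the inbred criteria, 163 of them (97.0%) were within the limits, 4 were under 0.4 and 1 was at 0.9 or more.

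Choosing the members again on 2 replicates and reading f in the replicate left out gave the same measure in arrays that the choice did not use. The median f of the left-out replicate was 0.659 over 204 probe sets for replicate 1, 0.667 over 180 for replicate 2 and 0.670 over 181 for replicate 3 (mean 0.665 ± 0.00565, SD, n = 3). The left-out positions between the Mo17 level (0) and the B73 level (1) were 0.664, 0.694 and 0.723 for B73xMo17 and 0.346, 0.345 and 0.355 for Mo17xB73. The 3 choices share arrays, and f is kept here as a description.

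**Figure D2:**
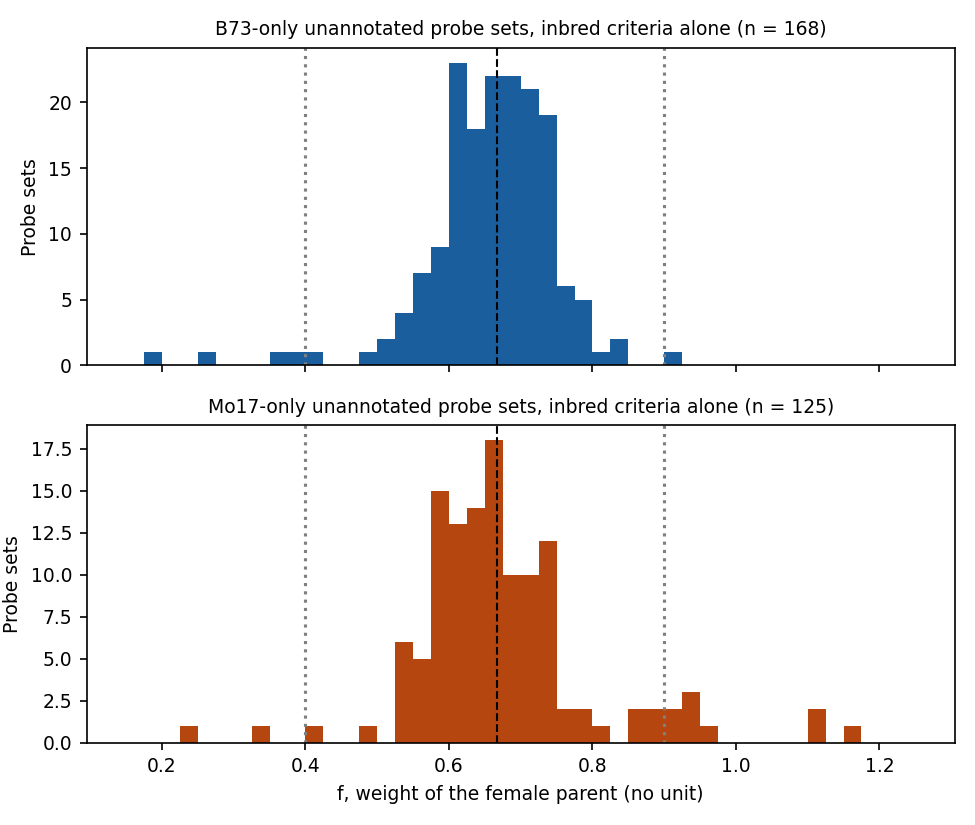
Number of unannotated probe sets (vertical axis) by f, the weight of the female parent (horizontal axis, no unit), for those that met the inbred criteria with B73 high (upper panel, n = 168) and those with Mo17 high (lower panel, n = 125). The dashed line marks 2/3 and the dotted lines the limits of 0.4 and 0.9. The medians are 0.665 and 0.661, and 5 and 11 probe sets lie outside the limits.

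Whether the hybrids together reached the dose level was tested with the mean of both hybrids against the mean of both inbreds. Any constant amount per B73 genome makes these means equal. The inbred arrays were chosen high in B73 and low in Mo17, so the reference of this test is not free of the choice. In the median member the hybrids lay at 0.514 of the way from the Mo17 to the B73 level (quartiles 0.458 and 0.573), where 0.5 is the dose level. The median of this position was 0.508, 0.505 and 0.530 on the 3 dates (mean 0.514 ± 0.0138, SD, n = 3), so it differed from 0.5 by about the spread between dates. It lay at 0.558 on the deposited scale and at 0.478, on the other side of 0.5, with median centring. The hybrid with B73 as female stood at 0.694 ± 0.0251 and its reciprocal at 0.346 ± 0.0138 (SD, n = 3), with dose levels of 0.667 and 0.333.

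Of the 163 members, 2 were higher and 1 was lower than the mid-parent in limma's test (adjusted p under 0.05). Over the 11747 probe sets tested, 0.153% were higher and 0.0511% lower. The median difference of the members was 0.03 on the log2 scale and that of all tested was -0.01. The 95% interval included 0 in 135 members, and its median half-width was 0.32 on the log2 scale, or 1.25-fold. In 118 members the whole interval lay within 1.5-fold of the dose level, so larger departures lay outside the interval there, and in the other 45 they did not. At an unadjusted p under 0.05, 28 members differed, and 8.24% of all tested did.

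**Figure D3:**
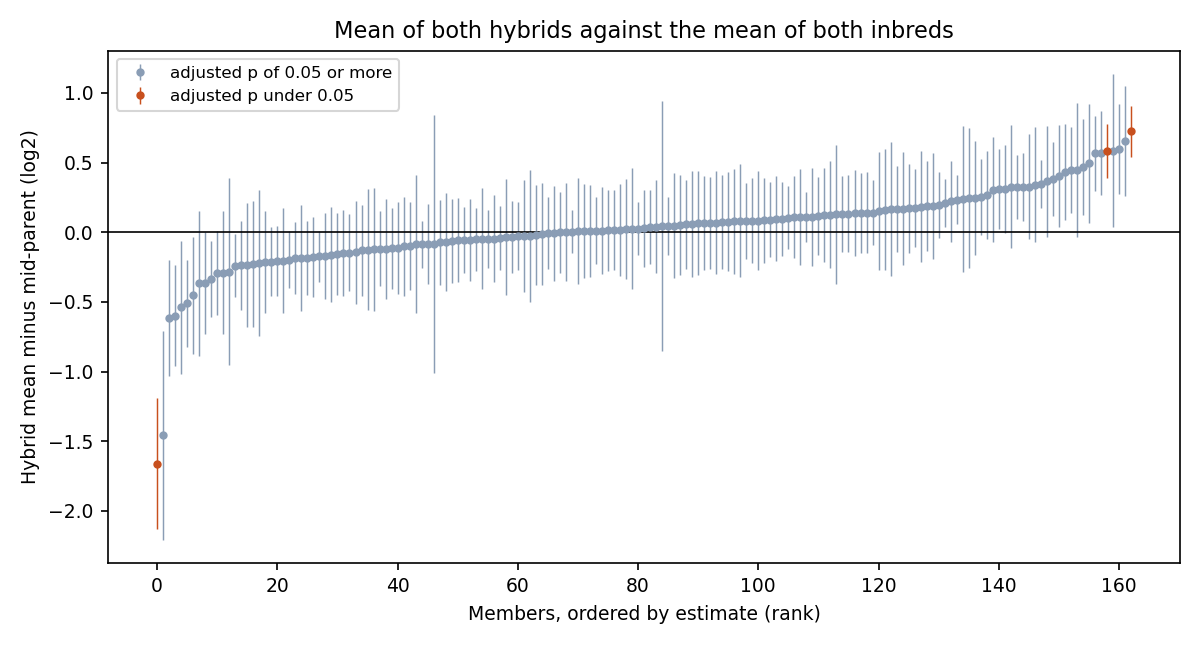
Mean of both hybrids minus the mean of both inbreds (log2, vertical axis) for the 163 members ordered by the estimate (horizontal axis, rank). Points are estimates from limma, bars 95% intervals, and the 3 members with an adjusted p under 0.05 are in the second colour. The estimates run from -1.66 to 0.72 and 135 intervals cross 0.

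The 2 members that were higher had both hybrids well above dose. In Zm.3714.2.A1_at the B73 arrays read 6652, 6107 and 6624, the B73xMo17 arrays 5840, 6376 and 6554, the Mo17xB73 arrays 5220, 4569 and 5153, and the Mo17 arrays 312, 307 and 394. The B73xMo17 arrays overlapped the B73 arrays, and the hybrids stood at 96.8% and 77.1% of B73. The hybrid mean was 0.72 above the mid-parent on the log2 scale (SE 0.0846, limma adjusted p = 0.00115). In Zm.3845.1.A1_at the B73 arrays read 3145, 3518 and 3576, the B73xMo17 arrays 3057, 3851 and 3355, the Mo17xB73 arrays 2314, 2393 and 2633, and the Mo17 arrays 571, 477 and 438. Its B73xMo17 and B73 arrays also overlapped, while both other genotypes lay below them. Its difference was 0.58 (SE 0.0901, limma adjusted p = 0.0118), but it missed the threshold when B73 replicate 1 (adjusted p = 0.0613) or B73 replicate 2 (0.0538) was left out, with median centring (0.0906) and with eBayes without trend (0.0737).

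The member that was lower, Zm.15850.1.S1_at, fell nearly to the Mo17 level in both hybrids. Its B73 arrays read 1055, 1448 and 1248, its B73xMo17 arrays 193, 158 and 207, its Mo17xB73 arrays 318, 166 and 219, and its Mo17 arrays 180.0, 80.9 and 81.0. The hybrids overlapped each other and Mo17, at 14.9% and 18.8% of B73 against 9.12% for Mo17. The hybrid mean was -1.66 from the mid-parent on the log2 scale (SE 0.218, limma adjusted p = 0.00328), and the call was kept with each of the 12 arrays left out. Its f of 0.479 was among the lowest of the members, and at such low hybrid levels f carries little of a difference between the hybrids.

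With the crossing date as a block, 7 members passed, 5 higher and 2 lower. The share of all tested that passed with the block is not given here, so the rise is not read as a trait of the members. Those added were Zm.5707.1.S1_at (0.57), Zm.14798.2.A1_at (0.60) and Zm.9703.1.A1_at (0.65), which were higher, and Zm.12696.1.S1_at (-1.46), which was lower, on the log2 scale. Zm.12696.1.S1_at read 139.6, 203 and 356 in B73, 20.6, 36.6 and 96.0 in B73xMo17, 27.1, 26.7 and 23.6 in Mo17xB73 and 12.8, 1.92 and 18.5 in Mo17, so that it was highest in replicate 3 in both B73 and B73xMo17. Without the block its difference did not pass. Without Mo17xB73 replicate 2, 5 members passed.

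Each hybrid was also set against its own dose of the inbreds. These tests hold part of the difference between the hybrids, which the rule bounded, so their counts are descriptions. B73xMo17 was higher than 2 parts B73 and 1 part Mo17 in 3 members and lower in 2, against 0.494% and 0.749% of all tested. The median difference was 0.04 on the log2 scale and 138 of 163 intervals included 0. At an unadjusted limma p under 0.05, 25 members differed, and 14.0% of all tested did. Mo17xB73 was higher than 1 part B73 and 2 parts Mo17 in 8 members and lower in 3, against 0.494% and 0.315% of all tested. The median difference was 0.06 and 118 intervals included 0. Here 45 members differed at an unadjusted limma p under 0.05, and 12.1% of all tested did. With the crossing date as a block, for which the shares of all tested are not given, 8 members passed for B73xMo17, 5 higher and 3 lower. For Mo17xB73, 15 passed with the block, 9 higher and 6 lower, and the low calls added were Zm.15850.1.S1_at (-1.06), Zm.15685.1.A1_at (-0.60) and Zm.1664.1.S1_at (-0.65).

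For B73xMo17, Zm.15850.1.S1_at was -2.16 from dose on the log2 scale (limma adjusted p = 0.000476), a call kept with each array left out. The other low member was Zm.15394.1.S1_at, which read 2822, 4000 and 5143 in B73, 762, 1442 and 1016 in B73xMo17, 2069, 1123 and 1840 in Mo17xB73 and 4.83, 2.60 and 3.79 in Mo17. Its hybrids overlapped, and the mean of B73xMo17 was the lower, at 26.9% of B73 against 42.1%, the reverse of the usual order. The difference of B73xMo17 from dose was -1.31 (adjusted p = 0.0212), and it was lost without B73 replicate 2 (0.0764) or 3 (0.0921) and without B73xMo17 replicate 1 (0.0673) or 3 (0.0957), and with eBayes without trend (0.0553). The 3 high members were Zm.3714.2.A1_at (0.50), Zm.3845.1.A1_at (0.48) and Zm.698.1.A1_at (0.41), with adjusted p from 0.0230 to 0.0480, and each was lost in 5 to 11 of the 12 fits that left out an array, and on the deposited scale and with median centring. The number of members that passed was 5 without Mo17 replicate 1, 1 without B73 replicate 2 or 3, and 2 or 3 without any of the other 9 arrays.

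For Mo17xB73, the largest departures above dose were 1.06 in Zm.3714.2.A1_at (limma adjusted p = 0.000148) and 1.00 in Zm.9703.1.A1_at (0.0474), and the call of the former was kept with each array left out. Zm.3845.1.A1_at (0.73, adjusted p = 0.00462) also kept its call. Zm.5707.1.S1_at (0.88, 0.0131) lost it without Mo17xB73 replicate 1 (0.0570) or 3 (0.0598), and Zm.14471.2.A1_at (0.57, 0.0130) without Mo17xB73 replicate 3 (0.0702) and with median centring (0.0685). Zm.6732.3.A1_at was the firmest low call: its B73 arrays read 4535, 4162 and 4234, its B73xMo17 arrays 2985, 2927 and 3216, its Mo17xB73 arrays 826, 742 and 846, and its Mo17 arrays 87.3, 116 and 112. Here B73xMo17 was at 70.6% of B73 and Mo17xB73 at 18.7%, a departure of -0.90 from dose (adjusted p = 0.000904) that each left-out array kept and the deposited scale did not (0.152). The other 5 members had adjusted p from 0.0326 to 0.0487, and each of them lost its call in 7 to 10 of the 12 fits, as Zm.9703.1.A1_at did in 8. The number of members that passed was 5 without B73 replicate 1, 2 or 3, Mo17 replicate 2, or Mo17xB73 replicate 1 or 3, and 7 without B73xMo17 replicate 3 or Mo17xB73 replicate 2. These were among the 11 in each case but 1: without Mo17xB73 replicate 1, 4 of the 5 were.

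**Figure D4:**
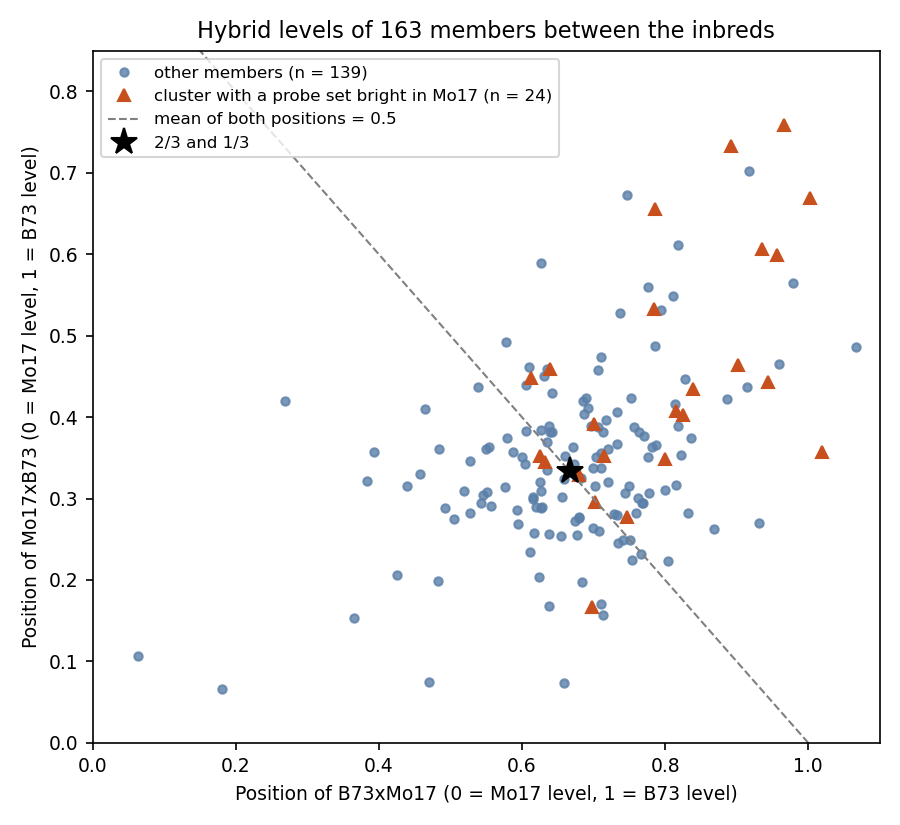
Position of each hybrid between the Mo17 level (0) and the B73 level (1), B73xMo17 on the horizontal and Mo17xB73 on the vertical axis, for the 163 members. The star marks 2/3 and 1/3, the dashed line a mean position of 0.5, and triangles the 24 members whose cluster number has another probe set at 100 or more in every Mo17 array. The medians are 0.698 and 0.351, and most triangles lie above and to the right of the dashed line.

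The positions of both hybrids varied together between members (Spearman correlation 0.36 over 163 members, a description, since both positions share the inbred means). The shared inbred means and the limits on f can raise this correlation by themselves, so nothing is read from it about the members. The mean position did not follow the brightness of the probe set: with the members in 4 groups of like size from the dimmest to the brightest by B73 signal, its medians were 0.542, 0.5003, 0.521 and 0.506, with a Spearman correlation of -0.04. Its spread was larger in the brightest group alone: the SD between members was 0.102, 0.0984, 0.0962 and 0.149 from the dimmest to the brightest. The 28 members with a Mo17 mean of 100 or more had a median mean position of 0.504 and a median f of 0.629, and the 58 members with a Mo17 mean under 10.6 had 0.506 and 0.680.

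Compared with Mo17, both hybrids gave a higher signal in nearly all members. B73xMo17 was higher than Mo17 in 163 of 163 members (19.9% of all tested) with a median difference of 2.97 on the log2 scale, and Mo17xB73 in 160 (7.57% of all tested) with a median of 2.30. The Mo17 arrays were chosen low, so these counts describe the choice as well as the hybrids, and the constant added before the logarithm shrinks the differences of dim members. The 3 members that did not pass in Mo17xB73 were Zm.11840.1.A1_at, Zm.12696.1.S1_at and Zm.17251.1.A1_at. In Zm.17251.1.A1_at the B73 arrays read 161, 108 and 117, the B73xMo17 arrays 107, 76.7 and 74.5, the Mo17xB73 arrays 7.38, 6.15 and 25.5 and the Mo17 arrays 3.04, 3.43 and 4.92. Its hybrids were far apart, with the Mo17xB73 arrays close to those of Mo17 in replicates 1 and 2.

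Mo17xB73 was lower than B73 in 158 of 163 members (16.6% of all tested), with a median difference of -1.30. B73xMo17 was lower than B73 in 50 (2.68% of all tested), with a median of -0.47, and higher in 0 by limma's test (5.73% of all tested). At an unadjusted p under 0.05, B73xMo17 differed from B73 in 100 members and in 21.5% of all tested. The expected step from 3 to 2 doses is the smaller one, and the count moved with single arrays: 31 members passed without B73 replicate 1, 27 without B73 replicate 2, 32 without B73 replicate 3 and 31 without B73xMo17 replicate 3. The B73 arrays were chosen high, as the Mo17 arrays were chosen low.

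The names of the probe sets show which of them were designed from 1 cluster of transcript sequences, since the number after the prefix is the cluster and the next number a consensus within it. The 163 members came from 156 cluster numbers, and 113 members were the only probe set of theirs. Another 13 members shared 6 cluster numbers among themselves and are not independent of each other. In 4 of these 6 clusters the mean positions agreed to within 0.0272, the closest being 0.391 and 0.390 for Zm.8675.1.A1_x_at and Zm.8675.2.A1_a_at. In the other 2 a member stood apart: Zm.14354.2.A1_x_at was at 0.777 against 0.498 and 0.534 for Zm.14354.2.A1_a_at and Zm.14354.3.S1_a_at, and Zm.11882.2.A1_at was at 0.721 against 0.489 for Zm.11882.2.A1_x_at. In both clusters f differed less, by 0.0245 and 0.0712.

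There were 88 further probe sets that were no members in 39 cluster numbers, which held 42 members. Of these 88, 45 read at least 100 in every Mo17 array, in 21 cluster numbers with 24 members, and 36 of the 45 differed by under 2-fold between the inbreds. For example, Zm.5707.1.S1_at read 5848, 5661 and 6474 in B73 and 953, 560 and 773 in Mo17, whereas Zm.5707.1.S1_s_at read 2542, 2578 and 2746 in B73 and 2963, 3098 and 3252 in Mo17. The former fell 7.87-fold short of B73 in Mo17, and the latter was the higher in Mo17 on every array. Zm.3714.1.A1_at read 2149, 2002 and 1806 in B73 and 2588, 2362 and 2356 in Mo17, against 6652, 6107 and 6624 in B73 and 312, 307 and 394 in Mo17 for the member Zm.3714.2.A1_at. Both probe sets of this pair carry the cluster number Zm.3714 and differ in the consensus number.

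In 6 members a probe set with the same consensus number read at least 100 in every Mo17 array. The names do not say which part of a transcript a probe set covers or whether 2 consensus sequences are 1 gene, and this was not tested. Where such a partner was bright in Mo17, its probes gave a signal there, read without detection calls. Most of these partners, such as Zm.5707.1.S1_s_at, have names that end in s_at or x_at. Such probe sets can bind transcripts of related genes, so the transcript need not be that of the member. A different kind of pair was Zm.17662.1.S1_at with Zm.17662.2.S1_x_at. The member read 1366, 1561 and 1801 in B73, 1412, 1454 and 1954 in B73xMo17, 589, 584 and 546 in Mo17xB73 and 31.1, 9.61 and 5.97 in Mo17. Zm.17662.2.S1_x_at read 66.3, 127 and 98.3 in B73, 370.3, 488 and 626 in B73xMo17, 684, 701 and 654 in Mo17xB73 and 773, 712 and 815 in Mo17, so that within 1 cluster number each inbred had a probe set of its own. It was 1 of the 2 of the 88 that met the mirrored inbred criteria, with Mo17 high.

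**Figure D5:**
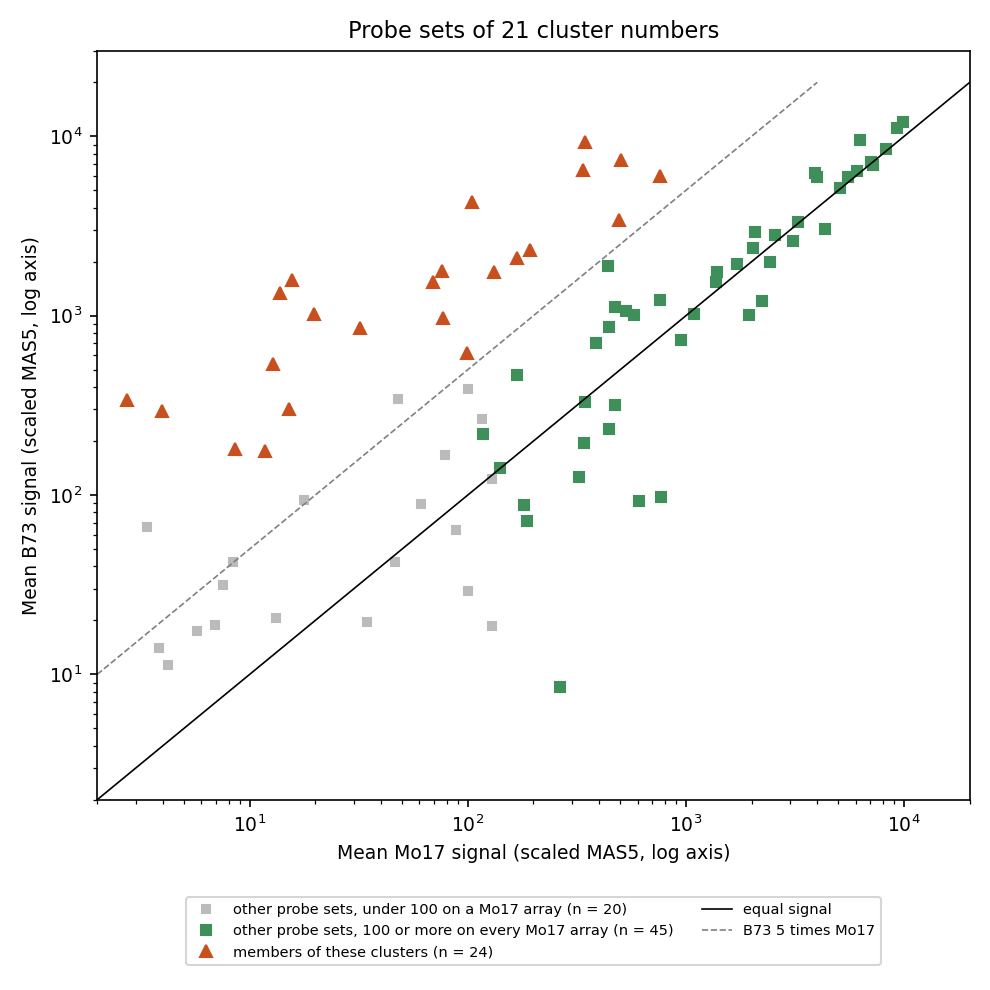
Mean B73 signal (vertical) against mean Mo17 signal (horizontal, both log axes, scaled MAS5 signal) for the probe sets of the 21 cluster numbers that hold a member and another probe set at 100 or more in every Mo17 array. Triangles are the 24 members, dark squares the 45 probe sets at 100 or more in every Mo17 array, light squares the other 20, the solid line equal signal and the dashed line a ratio of 5. Of the 45 dark squares, 36 lie within 2-fold of the solid line, 6 are 2-fold or more higher in Mo17 and 3 are 2-fold or more higher in B73.

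The members of these 21 clusters were not placed like the rest. This split was chosen after the values were seen, so no test is given. The median position of the 24 members was 0.793 in B73xMo17 and 0.421 in Mo17xB73, and that of the other 139 members was 0.683 and 0.337. The mean of both positions had a median of 0.613 (quartiles 0.526 and 0.700) against 0.507 (0.455 and 0.556), and it lay above 0.5 in 20 of 24 members against 76 of 139. The median f was nearly the same, at 0.677 and 0.665. Both members higher than the mid-parent, and 7 of the 8 above dose in Mo17xB73, were among the 24.

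The 24 members were also brighter, with a median B73 signal of 1439 against 370. Among members with a B73 mean of 1000 or more, the median mean position was 0.674 in the 14 of these clusters and 0.478 in the 28 others. Under 1000 it was 0.573 in 10 and 0.514 in 111. The 113 members alone in their cluster number had a median of 0.507 and the other 26 had 0.503. Without the 24 members, the median over the 139 others, taken per date, was 0.667 for B73xMo17, 0.336 for Mo17xB73 and 0.501 for the mean of both. The part of related transcripts that bind the same probes was not tested.

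Zm.14471.2.A1_at is a bright member of such a cluster. It read 7239, 7308 and 7508 in B73, 5822, 6287 and 5521 in B73xMo17, 3650, 4657 and 4161 in Mo17xB73 and 494, 470 and 555 in Mo17, with no overlap between genotypes. Its mean position was 0.659. Zm.14471.1.A1_a_at of the same cluster read 6851, 7041 and 6854 in B73, 8185, 7089 and 7169 in B73xMo17, 7512, 7461 and 6768 in Mo17xB73, and 7939, 6753 and 6881 in Mo17, where the inbreds overlapped. The cluster of Zm.6732.3.A1_at, whose Mo17xB73 level was below dose, likewise held Zm.6732.2.A1_at, with means of 2815 ± 149.8 in B73 and 2560 ± 25.9 in Mo17 (SD, n = 3).

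In the names of the members a letter A, used by the array's design beside the letter S, stood in 127 of 163 (77.9%). It stood in 63.4% of the unannotated probe sets that passed the filter on dim signals and in 64.9% of the 114 mirrored probe sets. Names that end in s_at or x_at, which can bind transcripts of related genes, were 7 of the 163 and 627 of the 10760 unannotated probe sets that passed the filter. The prefix ZmAffx stood in 4 members and in 772 of the same 10760.

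The mirrored choice, with Mo17 high and B73 low, gave 114 probe sets. Read from the B73 level (0) to the Mo17 level (1), their median positions were 0.657 ± 0.00980 in Mo17xB73 and 0.343 ± 0.0180 in B73xMo17, with a mean of both of 0.510 ± 0.0155 (SD, n = 3 dates). The corresponding values of the members were 0.694 ± 0.0251, 0.346 ± 0.0138 and 0.514 ± 0.0138. The median f was 0.650 ± 0.00787 in the mirrored probe sets and 0.667 ± 0.00164 in the members. The difference between both sets was not tested.

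Another 20 probe sets met the inbred criteria with B73 high and had a gene in the annotation, 18 of them with f in the limits. Zm.3944.1.S1_at is o2 (Opaque-2), a transcription factor of the endosperm that acts on zein genes, and read 4735, 3265 and 3721 in B73, 3203, 2518 and 3112 in B73xMo17, 2253, 1190 and 1511 in Mo17xB73, and 194, 167 and 173 in Mo17. Its hybrids stood at positions 0.742 and 0.395, with an f of 0.673. The 3 probe sets of dzs18, a sulphur-rich delta zein, had f from 0.680 to 0.736, but B73xMo17 stood at the B73 level, at positions from 1.01 to 1.06, with Mo17xB73 from 0.589 to 0.652. In this they were like Zm.3714.2.A1_at and Zm.3845.1.A1_at among the members. The 2 probe sets outside the limits belonged to HRGP, a cell wall glycoprotein, with f of 1.02 and 0.913.

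At the limits of the choice, the members with the lowest f were Zm.15394.1.S1_at (0.424) and Zm.15850.1.S1_at (0.479), and those with the highest were Zm.17662.1.S1_at and Zm.698.1.A1_at (both 0.831). The nearest probe sets outside were Zm.16281.2.S1_at (0.389) and Zm.7016.1.A1_x_at (0.372) below and Zm.18395.1.S1_at (0.915) above. Zm.9973.1.A1_at and Zm.6549.1.A1_at had the lowest B73 arrays, both at 104, and Zm.8675.2.A1_a_at (5.01) and Zm.5390.1.A1_at (5.03) the lowest ratios of lowest B73 to highest Mo17 array. A ratio of 3 in place of 5 gave 283 members and a ratio of 10 gave 88.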

How the data were processed

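Total RNA (8 micrograms) of 12 endosperm pools was labelled with biotin and hybridised to 1 Affymetrix maize array each. The deposited intensity values, which are linear and give 1 number for each probe set on each array, were made by the authors with MAS5, per the submitters' processing notes. Neither its version nor its scaling target is given in the sources used here, and no detection calls were used. Each array was scaled to a common trimmed mean (2% at each end), since the choice of members is defined on that scale.

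Of 17734 probe sets, 113 controls were left out, and the dimmest 33.3% of the rest, which left 11747 for testing. All 163 members passed this filter. Differences were fitted on log2(signal + 10.6) with limma 3.58.1 in R 4.3.3 (lmFit, eBayes with trend) over all 4 genotypes, with 8 residual degrees of freedom. Mid-parent and dose levels were formed on the linear scale, with standard errors from the delta method. Tests were two-sided, p-values were adjusted by Benjamini-Hochberg over all 11747 with a threshold of 0.05, and they measure the spread between pools of 3 dates in 1 season. Precision is limited by the number of arrays: the median SE was 0.15 (log2) for a difference between genotypes. The script was tested on simulated data.

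The members and lists were chosen with earlier results of these data known. Probe sets named are the 6 with the highest B73 signal, the 3 with f nearest 2/3, those nearest each limit, those called in the dose tests and their cluster partners, some of which were picked after their values were seen. The platform's annotation gave 1452 probe sets 1 gene and 1 several, and 16168 that are not controls none. Arrays with the same replicate number share a crossing date, per the labels' protocols. Correlations of deviations from the genotype means were from 0.05 to 0.41 in 18 pairs of arrays with the same number. They were from -0.31 to 0.15 in 36 pairs with different numbers. Deviations from a genotype mean cancel over its arrays, so these ranges are not independent of each other. Alternatives were other scalings, constants, filters and limits, a block for date, eBayes without trend and each array left out.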

Additional observations from a re-analysis of the deposited data

How the results depend on the processing

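With single arrays left out, B73xMo17 was above Mo17 in 161 to 163 members, Mo17xB73 above Mo17 in 156 to 160 and below B73 in 152 to 160, B73xMo17 below B73 in 27 to 59, and the mid-parent test called 2 to 5, B73xMo17 against dose 1 to 5 and Mo17xB73 against dose 5 to 14. The number of members ran from 163 to 197, and the median positions from 0.681 to 0.705 for B73xMo17, 0.340 to 0.354 for Mo17xB73 and 0.506 to 0.519 for both. With the replicate block for the crossing date, 7 members in place of 3 differed from the mid-parent and 8 in place of 5 from the B73xMo17 dose. The members below the Mo17xB73 dose went from 3 to 6 (15 in place of 11 in both directions), and no other total moved by over 1.5 times. The shares of all tested with the block are not given, so these rises are not read as a trait of the members. For B73xMo17 against dose, 2 were called on the deposited scale, with median centring or without the trend, and 3 with a constant of 1 or no filter. For Mo17xB73 against dose, 5 in place of 11 were called with a constant of 1 or no filter and 6 without the trend. B73xMo17 was below B73 in 21 on the deposited scale, 30 with a constant of 1, 33 with no filter and 76 with a constant of 50. The deposited scale gave positions of 0.722, 0.409 and 0.558 and median centring 0.645, 0.325 and 0.478, for B73xMo17, Mo17xB73 and both, and quantile normalization gave 0.329 for Mo17xB73. The side of 0.5 on which the members lay thus depended on the scaling. The left-out f was 0.649 on the deposited scale and 0.654 with median centring. A ratio limit of 3 gave 283 members and of 10 gave 88. In an alternative added after the data were seen, leaving out the 24 members of clusters bright in Mo17, 1 member differed from the mid-parent, 3 from the B73xMo17 dose and 3 from the Mo17xB73 dose, and the B73xMo17 position was 0.667. Of the calls of single members under all alternatives, 275 were kept, 123 fell short of the threshold and 0 changed direction. Median centring moved the median mid-parent difference of all probe sets tested by -0.11 (log2). The deposited scale moved the median of all tested by -0.15 for B73xMo17 against Mo17 and by 0.21 for Mo17xB73 against B73. The causes were not tested. Without detection calls, levels under about 10.6 have no order, which bears on the 58 members with such a Mo17 mean. This value is the constant added and not a measured floor, so dim Mo17 levels above it can be uncertain too. The median coefficient of variation of a member between arrays was 35.9% in Mo17 and 8.99% in B73.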
